A study of Mus musculus with 8 samples.

Results

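The GADD45 genes, the BTG/TOB genes, the sestrin gene Sesn1 and the stress-responsive polo-like kinase genes Plk2 and Plk3 were examined in camptothecin-treated mouse mammary tumour cells. The 10 genes were Gadd45a, Gadd45b, Gadd45g, Btg1, Btg2, Btg3, Tob1, Sesn1, Plk2 and Plk3. They were found on the array by their RefSeq accessions and had 16 probes among 41174 on the array, or 10 of 32053 features when each gene was represented by its brightest probe. The arrays came from 8 samples of tumour cell lines of the FVB strain with the PyMT (polyoma middle T) tumour model, and all of them had received 50 uM camptothecin (CPT) for 36 h, the controls included. Camptothecin is a topoisomerase I poison that causes replication stress. In the wild-type line WTA, 3 samples carried a short hairpin RNA against Snd1 (LKO1-shSnd1) and 3 carried the empty LKO1 vector, and both were selected with puromycin. In the MTDH-KO line KO2, 1 sample had been given back wild-type Mtdh (LmPGK-mMtdh-ires2-GFP) and 1 sample Mtdh with the W391D mutation (LmPGK-mMtdhspm13-ires2-GFP), which the series describes as deficient in binding Snd1. Both carried lentiviral constructs and were sorted for GFP, and each line, WTA or KO2, is a single established line, so the line stands for its genotype. Each sample, labelled with Cy5, was hybridised against a Cy3-labelled reference RNA mixed from 11 mouse cell lines, and values are log2 ratios of Cy5 over Cy3. No untreated cells were analysed here, so no value below shows the response of a gene to the drug.

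These genes belong to the braking side of the stress response. GADD45 proteins are small nuclear proteins that bind PCNA, p21 and the Cdk1-cyclin B complex and that activate the kinase MAP3K4 upstream of p38 and JNK. BTG and TOB proteins restrain proliferation and recruit the CCR4-NOT deadenylase, which shortens the poly(A) tails of messenger RNAs. Sestrins bind the GATOR2 complex and restrain mTORC1 signalling, and Plk2 and Plk3 are induced by serum or genotoxic stress, unlike their relative Plk1, which drives mitosis. Several of the genes, among them Btg2, Gadd45a, Sesn1 and Plk2, are known targets of p53, and Btg2, Plk2 and Plk3 are also known as immediate early genes.

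Promoter windows of all 10 genes were present in the RefSeq table of build GRCm38.p6, with 2 windows each for Btg3 and Sesn1, and each window ran from 250 bases before to 50 bases after the start site. Sequences of 4 genes are shown because they carry the contrast described below: Btg2 and Tob1 had the largest differences among the members, and Plk3 and its relative Plk2 differed in outcome. The 250 bases before the start site are given 5′ to 3′ on the gene's strand, and capitals mark matches to the motifs searched.
Btg2, chr1:134079156-134079405 (minus strand): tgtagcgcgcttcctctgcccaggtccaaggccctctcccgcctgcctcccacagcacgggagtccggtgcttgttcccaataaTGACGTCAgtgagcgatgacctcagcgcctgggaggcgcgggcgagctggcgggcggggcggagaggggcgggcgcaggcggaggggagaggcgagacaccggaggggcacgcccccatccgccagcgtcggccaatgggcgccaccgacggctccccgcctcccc
Tob1, chr11:94211204-94211453 (plus strand): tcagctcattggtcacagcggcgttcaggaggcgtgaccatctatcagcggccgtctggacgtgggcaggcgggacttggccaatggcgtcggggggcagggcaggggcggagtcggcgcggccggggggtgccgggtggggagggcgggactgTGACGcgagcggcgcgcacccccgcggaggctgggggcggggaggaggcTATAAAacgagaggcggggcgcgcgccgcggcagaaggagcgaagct
Plk3, chr4:117133964-117134213 (minus strand): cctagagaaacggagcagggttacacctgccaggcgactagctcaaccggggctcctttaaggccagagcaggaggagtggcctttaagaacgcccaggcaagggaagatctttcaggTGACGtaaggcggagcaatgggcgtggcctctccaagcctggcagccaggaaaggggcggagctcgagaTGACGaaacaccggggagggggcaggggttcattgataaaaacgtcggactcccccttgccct
Plk2, chr13:110394794-110395043 (plus strand): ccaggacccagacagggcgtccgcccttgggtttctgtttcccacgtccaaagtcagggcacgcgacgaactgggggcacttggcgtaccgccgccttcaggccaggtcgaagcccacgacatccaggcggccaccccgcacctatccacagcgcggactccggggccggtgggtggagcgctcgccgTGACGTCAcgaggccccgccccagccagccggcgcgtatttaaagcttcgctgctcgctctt
Both strands were searched for a TATA box (TATAAA), the core of the cAMP response element (TGACG), an E box (CACGTG), an AP-1 site (TGANTCA), the p53 decamer motif and the CArG box of serum response factor. In Btg2 and in Plk2, overlapping TGACG cores on opposite strands form a single stretch, TGACGTCA, which the search matched once per strand. The matches start 166 and 163 bases before the start site in Btg2 and 62 and 59 bases before it in Plk2. The Plk2 window holds a further match at position 22 after the start site, outside the printed part. Plk3 has cores at 132 and 63 bases before the start site that do not overlap. The core occurred in 6 of the 12 member windows, those of 6 genes (Btg1, Btg2, Plk2, Plk3, Sesn1 and Tob1). Among all 32851 promoter windows of the same length the share was 20.8%. A TATA box occurred in 4 of the 12 windows (Btg1, Gadd45b, Gadd45g and Tob1, against 13.6% of all windows). An E box occurred in 2 of them (Gadd45b and Gadd45g, against 7.15%), and a p53 decamer in 2 (Gadd45a and 1 window of Sesn1, against 8.36%). None of the 12 windows held an AP-1 site (7.81%) or a CArG box (1.63%). These matches describe the letters of short windows, and no binding was measured.

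The arrays had median Cy5 signals of 158 to 363 over a median local background of 61 to 72, and 78.02% to 88.47% of spots were well above background in Cy5. Precision is limited by how few arrays there are. The hairpin's target Snd1 fell by 0.90 ± 0.06 (SE, n = 3 and 3) on the log2 scale, with a limma adjusted p = 1.04e-05 (a difference of 0.018, adjusted p = 0.977, when log ratios were scaled between arrays). Replicate 1 of the knockdown and of the vector shared a first slide and their other 4 arrays a second one, while the rescue arrays lay on 2 further slides. Whether replicates were separate cultures is not stated, so p-values cover only array-to-array spread, possibly technical. All 14 mammary epithelial markers were above background on the 6 knockdown and vector arrays. By the same fit 9 of them were lower and 3 higher in the knockdown, against 21.1% and 23.6% of all features. The summed Cy5 signal of the epithelial markers, quantile-normalized between arrays, was 411000 to 429800 in the knockdown and 595500 to 615300 in the vector arrays. Fibroblast markers moved the other way, with 7 of 10 tested higher and none lower (none at an unadjusted p under 0.05 either). Their summed signal was 33120 to 37690 against 14280 to 16130, and 30960 and 34030 in the wild-type and W391D rescue arrays. The rises ran from 0.16 for Col3a1 to 2.72 for Postn on the log2 scale, and Dcn, Lum and Thy1 were not called. All those tested but Postn stood below the reference RNA in both groups. In the rescue arrays Fbln2 (-0.89 and -0.75) stood above the vector arrays (-3.20 to -3.10). Postn (-2.97 and -2.81) and Pdgfrb (-3.53 and -3.89) stood below them, so these markers did not move together there. Of the adipocyte markers 4 of 6 were higher in the knockdown (9574 to 10310 against 5784 to 6427). Leukocyte markers (2 higher and 2 lower of 7; 7485 to 7615 against 8913 to 9752) and endothelial markers (1 higher and 2 lower of 5; 1928 to 2055 against 1897 to 1974) were mixed, and Tek alone among all markers was above background on none of these 6 arrays. In the wild-type and W391D rescue arrays the sums were 780600 and 847800 for epithelial and 1649 and 1740 for adipocyte markers. They were 10430 and 11220 for leukocyte and 1013 and 981.8 for endothelial markers. The part of all these markers in the differences below was not tested. In RNA from whole cultures, fewer cells of a type and less RNA per cell cannot be told apart.

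Most of the braking genes stood higher in Snd1-knockdown cells than in vector cells under camptothecin, with Btg2 far ahead. By limma with Benjamini-Hochberg adjustment over 25684 features, 7 of the 10 members rose at an adjusted p under 0.05 and none fell, and at an unadjusted p under 0.05 the counts were 8 and 0. With each array's log ratios centred on their median, without loess, 6 rose and 1 fell, and with the loess-normalized log ratios scaled to a common spread between arrays 5 rose and 1 fell. Over all features 44.8% were called, 23.6% higher and 21.1% lower. The median difference was 0.55 over the members and 0.02 over all features on the log2 scale. The 3 knockdown values lay above all 3 vector values for 8 members and below them for none, whereas 28.7% of all features lay entirely above and 24.5% entirely below. Past 2-fold, 2 members (Btg2 and Tob1) were called higher, against 2.27% of all features, and with scaling between arrays Tob1 was no longer past 2-fold. All 10 members were above background on all 8 arrays with their brightest probe, so none entered the test through 1 group alone.

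**Figure D1:**
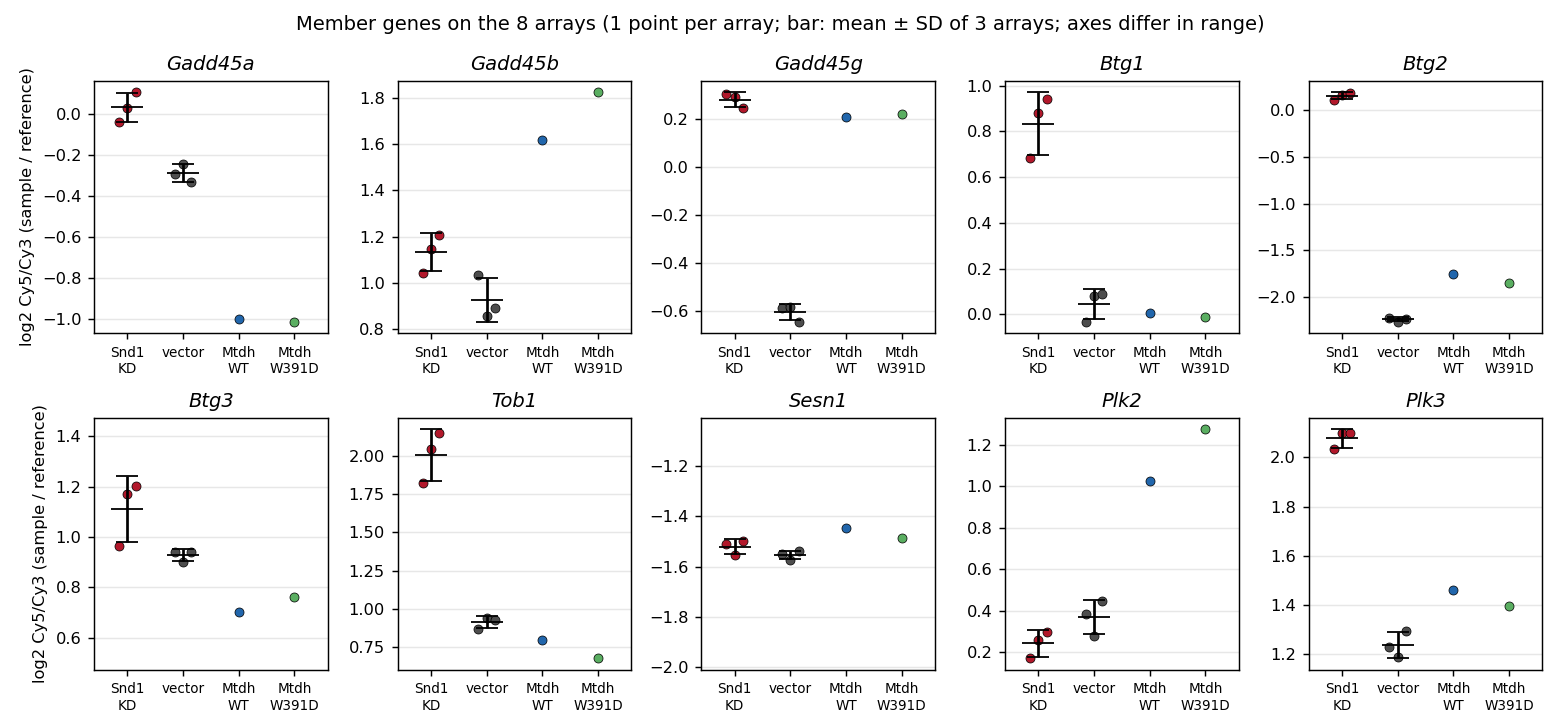
Log2 ratio of sample (Cy5) to reference RNA (Cy3) for the brightest probe of each gene, 1 point per array, with the mean and SD of the 3 knockdown and 3 vector arrays. Btg2, Tob1, Btg1 and Plk3 stand highest in the knockdown, Gadd45b and Plk2 in the rescue arrays. The axes differ in range between panels.

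Btg2, an antiproliferative gene that is both a p53 target and an immediate early gene, had log2 ratios of 0.11, 0.16 and 0.18 with the hairpin and of -2.22, -2.26 and -2.23 with the vector. By each of its 3 probes the vector arrays stood below the reference RNA and the knockdown arrays above it, where the other probes gave 1.40 to 1.70 and 1.00 to 1.12, so how far above depended on the probe. Btg2 rose 5.22-fold (log2 difference 2.39 ± 0.04 SE, n = 3 and 3, limma adjusted p = 1.68e-08), and 0.315% of all features had a larger difference. Its other probes gave 2.48 ± 0.08 and 2.48 ± 0.07, with 95% intervals that overlap its own. The differences on the first and second slide were 2.33 and 2.41. Tob1, which brings deadenylases to messenger RNAs and dampens growth signalling, had 1.82, 2.04 and 2.15 in the knockdown and 0.87, 0.94 and 0.92 in the vector arrays. The groups were far apart although the knockdown arrays spread more than the vector arrays. Tob1 rose 2.13-fold (1.09 ± 0.08, adjusted p = 1.51e-05), by 0.95 and 1.16 on the 2 slides, and with scaling between arrays the difference was 0.63 (adjusted p = 0.0275).

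Btg1, the closest relative of Btg2 and likewise an inhibitor of proliferation, read 0.68, 0.88 and 0.94 in the knockdown and -0.03, 0.08 and 0.09 in the vector arrays. It rose 1.73-fold (0.79 ± 0.07, adjusted p = 5.33e-05), and its second probe gave 0.84 ± 0.07. Both probes separated the groups completely. Btg3, the remaining BTG member examined, read 0.96, 1.17 and 1.20 in the knockdown and 0.94, 0.90 and 0.94 in the vector arrays. The groups did not overlap, but the lowest knockdown array, replicate 1, stood beside the vector arrays. Btg3 did not pass the test (0.18 ± 0.07, 95% interval 0.03 to 0.34, adjusted p = 0.0563). It passed when the replicate number was fitted as a block (adjusted p = 0.0363), and without knockdown replicate 1 the difference was 0.26 (adjusted p = 0.00286). With log ratios scaled between arrays it changed sign (-0.16), and its adjusted p over 21 alternatives lay between 0.00286 and 0.475.

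All 3 GADD45 genes were called, with Gadd45g far ahead of the other two, although differences between the genes were not tested. Gadd45g, described in cytokine and differentiation responses, read 0.30, 0.29 and 0.24 in the knockdown and -0.59, -0.58 and -0.64 in the vector arrays. The replicates were tight and the groups well apart, and Gadd45g rose 1.85-fold (0.88 ± 0.04, adjusted p = 1.73e-06), by 0.89 and 0.88 on the 2 slides. Gadd45a, the p53-responsive member, read -0.04, 0.03 and 0.11 in the knockdown and -0.29, -0.24 and -0.33 in the vector arrays. It rose 1.25-fold (0.32 ± 0.05, adjusted p = 0.00128) without overlap, but from the Cy5 channel alone the same difference (0.34 ± 0.16) did not pass (adjusted p = 0.173; lowest of 21 alternatives 0.000526). Gadd45b, the member known as a target of NF-kB and TGF-beta, read 1.04, 1.15 and 1.21 in the knockdown and 1.03, 0.86 and 0.89 in the vector arrays. The lowest knockdown array and the highest vector array were almost equal, and both were the replicate 1 arrays of the first slide. Gadd45b was called (0.21 ± 0.06, adjusted p = 0.033; -0.14 with scaling between arrays), yet the first slide gave 0.01 and the second 0.30, and its second probe gave 0.10 ± 0.05 (adjusted p = 0.198 in the fit over probes). Gadd45b was no longer called when knockdown replicate 2 (0.20, adjusted p = 0.0909) or 3 (0.17, 0.113) or vector replicate 2 (0.17, 0.113) or 3 (0.19, 0.103) was left out. The call was also lost with the series' value table (0.19, adjusted p = 0.0997), median centring (0.12, 0.332) and the Cy5 channel alone (0.13, 0.393). It held in 11 of 21 alternatives, over which the adjusted p ran from 0.00209 to 0.512.

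Of the stress polo-like kinases, Plk3 was higher in the knockdown and Plk2 was not called. Plk3, a kinase linked to the DNA damage checkpoint, read 2.03, 2.10 and 2.10 in the knockdown and 1.23, 1.19 and 1.30 in the vector arrays. It rose 1.79-fold (0.84 ± 0.05, adjusted p = 3.55e-06), by 0.81 and 0.86 on the 2 slides, and the call was lost with scaling between arrays (0.32, adjusted p = 0.335; range over 21 alternatives 1.09e-06 to 0.335). Plk2, a kinase with a role in centriole duplication, read 0.17, 0.26 and 0.30 in the knockdown and 0.38, 0.28 and 0.45 in the vector arrays. These values overlap, and Plk2 did not pass (-0.13 ± 0.06, 95% interval -0.26 to 0.01, adjusted p = 0.122). It passed as lower with median centring (-0.23, adjusted p = 0.0231) and with scaling between arrays (-0.24, adjusted p = 0.0455), and the highest adjusted p of 21 alternatives was 0.79. The interval of Plk3 (0.73 to 0.95) did not meet that of Plk2, although the difference between the 2 genes was not itself tested. Sesn1 read -1.51, -1.56 and -1.50 in the knockdown and -1.55, -1.57 and -1.54 in the vector arrays, which overlap. Its difference was 0.03 ± 0.04 (95% interval -0.06 to 0.13, adjusted p = 0.588), and its other probes gave -0.03 ± 0.05 and 0.12 ± 0.06. Its direction varied with scaling, from -0.12 with median centring to 0.52 with scaling between arrays, and it passed under none of 21 alternatives.

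**Figure D2:**
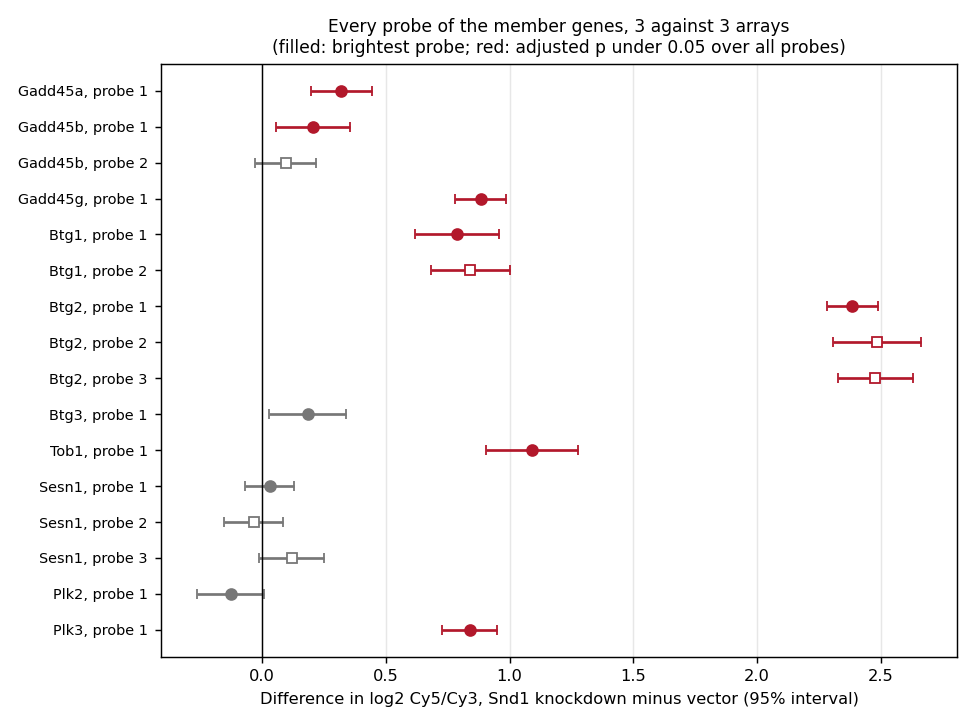
Difference in log2 ratio between Snd1-knockdown and vector arrays for each of the 16 probes, with 95% intervals from limma. Filled circles are the brightest probe of a gene, open squares its other probes, and red marks an adjusted p under 0.05 over all probes. The 3 Btg2 probes lie between 2.39 and 2.48, and both Btg1 probes near 0.8, while the 3 Sesn1 probes straddle 0.

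Taking every probe as its own feature, 45.7% of 33574 probes were called, 23.6% as higher, and 10 of the 16 member probes were called, all higher. Besides the brightest probes these were the second probe of Btg1 and both further probes of Btg2. The probes of a gene share its RNA and are no replicates. The slides were compared because each held both groups. Where a member moved by more than 0.5 on the log2 scale, both slides gave at least 0.71. For Gadd45b and Btg3 almost the whole difference came from the second slide.

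**Figure D3:**
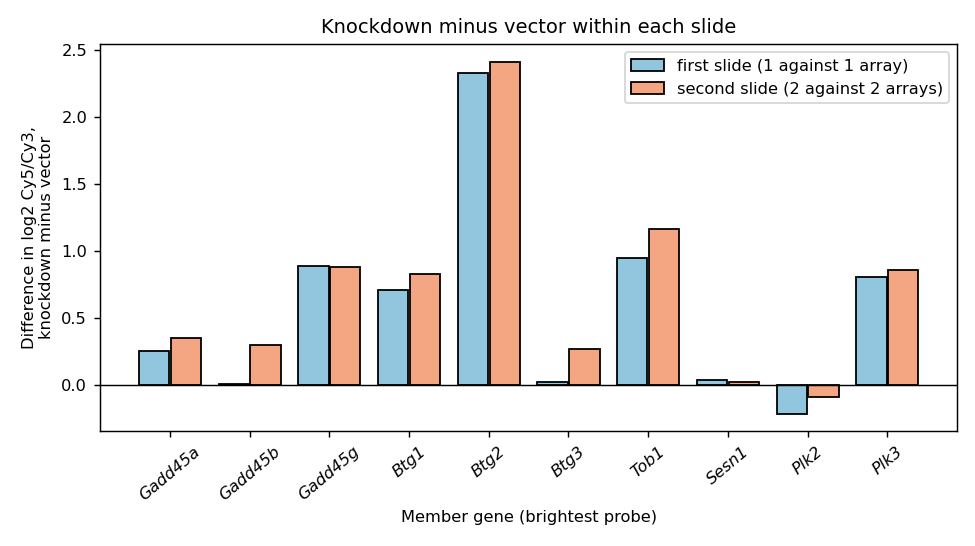
Knockdown minus vector difference in log2 ratio within the first slide (1 array against 1) and within the second slide (2 against 2), for the brightest probe of each gene. Btg2 gives 2.33 and 2.41, whereas Gadd45b gives 0.01 and 0.30 and Btg3 0.02 and 0.27.

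The Snd1-binding mutation of Mtdh was looked at with the W391D and wild-type rescue arrays, 1 each, so there is no replicate check and no test. These arrays lay on different slides, so mutation, Mtdh RNA level and slide cannot be told apart in them. No member differed by 1.5-fold, and 0.166% of 27028 features (45) did, although the series' value table gave 1129 such features, again with no member. The largest member difference was in Plk2, with 1.03 with wild-type and 1.28 with W391D Mtdh, a difference of 0.25 that turned to -0.23 from the Cy5 channel alone. Gadd45b followed, with 1.62 and 1.82 (difference 0.21), while its second probe gave -0.04. Btg2 read -1.76 and -1.85 (difference -0.10, and 0.08 from the Cy5 channel alone), Tob1 0.79 and 0.68, and Gadd45g 0.21 and 0.22, while Gadd45a read -1.01 with W391D (difference -0.01). For Btg1 (0.01 and -0.01), Btg3 (0.70 and 0.76), Sesn1 (-1.45 and -1.49) and Plk3 (1.46 and 1.40) the differences lay between -0.06 and 0.06. From the Cy5 channel alone they were 0.19 for Btg1, -0.06 for Btg3, -0.25 for Sesn1 and 0.33 for Plk3. Mtdh itself read 0.42 with the wild-type and -0.10 with the W391D construct, against -0.73, -0.65 and -0.59 in vector cells.

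The rescue arrays placed the members differently from the knockdown arrays. These comparisons use the same vector arrays as the knockdown comparison, and line, genotype, construct, selection and slide cannot be told apart in them. By the brightest probe, both rescue arrays lay above all 3 vector arrays for 6 members (Gadd45b, Gadd45g, Btg2, Sesn1, Plk2 and Plk3). They lay below them for 3 (Gadd45a, Btg3 and Tob1), while 34.6% of 25937 features lay above and 27.7% below. Plk2 was 0.78 higher on average in the rescue arrays than in the vector arrays, Gadd45b 0.79 and Gadd45g 0.82, each as log2 differences. For Gadd45g the rescue values (0.21 and 0.22) came close to those of the knockdown (lowest 0.24). Gadd45a differed by -0.72, so that the order ran from knockdown to vector to rescue without overlap. Gadd45b and Plk2 had their highest levels in the rescue arrays, where both exceeded every array of the WTA line, Gadd45b with either probe.

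By its brightest probe Btg2 ran from knockdown through both rescue arrays to vector, the rescue arrays standing 0.43 above the vector mean. Its other probes placed them only 0.14 and 0.05 above it. By the last of these probes the W391D array (-1.42) lay within the vector arrays (-1.53 to -1.30). The wild-type rescue array (-1.30) was level with the highest of them. Btg1, Tob1 and Btg3 also had their highest levels in the knockdown. For Btg1 the rescue arrays lay within the range of the vector arrays by the brightest probe, and the second probe gave a mean difference of -0.39. For Tob1 the vector arrays came next (lowest 0.87) and then the rescue arrays (0.79 and 0.68). For Plk3 the knockdown stood highest, then the rescue arrays (1.46 and 1.40), then the vector arrays (highest 1.30). Sesn1 ran from -1.57 to -1.45 over all 8 arrays, with the rescue arrays marginally highest, and its neighbouring groups could not be ordered beyond their spread because its other probes gave -0.17 and -0.06 for rescue minus vector.

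Relatives of the members moved both ways in the knockdown. Of 7 relatives 6 were tested, and 3 rose and 3 fell (Btg4 was above background on no array of this experiment). Sesn2, a stress-inducible sestrin, rose by 0.96 ± 0.13 (limma adjusted p = 0.000463). Its knockdown replicate 1 stood apart (0.67 against 0.18 and 0.15), and without it the rise was 0.79. Tob2 rose by 0.50 ± 0.04, though its second probe gave 0.20 (adjusted p = 0.261) and its call was lost with scaling between arrays, and Plk5 by 0.34 ± 0.04. Sesn3 fell by 0.30 ± 0.06, a call that was lost from the Cy5 channel alone (adjusted p = 0.132). The kinases of the dividing cell fell as well, Plk1, which drives mitotic entry and exit, by 1.41 ± 0.05 and Plk4, which starts centriole duplication, by 0.58 ± 0.06.

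Among the partners of GADD45 and the MAP3K4-p38/JNK cascade, 7 of 17 genes rose and 5 fell (median 0.06). Cdkn1a, which encodes the p21 inhibitor that GADD45 proteins bind, rose by 3.33 ± 0.05, and the Cdk1-cyclin B genes fell, Cdk1 by 0.83 ± 0.04 (-0.17 by another probe) and Ccnb1 by 0.76 ± 0.05. Mapk12, which encodes p38-gamma, fell by 0.79 ± 0.06. Map3k4, the kinase activated by GADD45 proteins, stood at -0.02 ± 0.05 (adjusted p = 0.774, and 0.50 with scaling between arrays, not called there either) and Mapk14, which encodes p38-alpha, at -0.08 ± 0.04 (adjusted p = 0.147).

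In the deadenylation list, the machinery with which BTG and TOB proteins work, 11 of 17 genes fell and 3 rose (median -0.26), but with log ratios scaled between arrays only 2 fell against 3 that rose, and those named here as falling lost their calls. The deadenylase gene Cnot6l fell by 0.94 ± 0.05, the scaffold Cnot1 by 0.73 ± 0.05, Cnot2 by 0.72 ± 0.05 and the nuclease Parn by 0.61 ± 0.05. Other probes gave smaller values, -0.55 for Cnot6l, -0.12 and -0.23 for Cnot1, -0.65 and -0.09 for Cnot2 and -0.15 for Parn. Cnot7, a deadenylase that BTG and TOB proteins bind directly, stood at 0.05 ± 0.06 (adjusted p = 0.584). Cnot8, another gene of this list, rose by 0.39 ± 0.05 (adjusted p = 0.000214). The subunit Cnot3 stood at -0.02 ± 0.05 (adjusted p = 0.814), while other probes of Cnot3 gave -0.29 and -0.23. In the sestrin-GATOR-AMPK-mTORC1 list 7 of 21 genes rose and 5 fell (median 0.12), against 2 and 6 with median centring. The AMPK subunit gene Prkab2 (0.59 ± 0.05) and the mTORC1 inhibitor gene Akt1s1 (0.45 ± 0.06; call lost with scaling between arrays) rose, whereas Tsc2, a brake on mTORC1, and the GATOR1 gene Depdc5 fell by 0.52 ± 0.04 and 0.51 ± 0.05. The GATOR2 genes Mios (0.03 ± 0.04) and Sec13 (0.11 ± 0.04, adjusted p = 0.0553) were not called. Another probe of Mios gave -0.29 (adjusted p = 0.000991 in the fit over probes) and another probe of Sec13 -0.10. The GATOR2 genes Wdr24 and Wdr59 were not called either, whereas Seh1l fell by 0.25 ± 0.05 (adjusted p = 0.00537).

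Of 23 measured regulators known to act on the members 10 rose and 9 fell (median -0.01), against 5 and 10 with median centring, and Nfkb1 had no named probe. The early growth response factor Egr1 rose by 2.13 ± 0.05, the stress factors Ddit3 (CHOP) by 1.37 ± 0.05 and Atf3 by 1.21 ± 0.04, and the p53 inhibitor Mdm2, itself a p53 target, by 0.94 ± 0.05 (0.58 by another probe). The largest falls were in Trp63 (-0.80 ± 0.08), Atr (-0.74 ± 0.05) and Chek2 (-0.73 ± 0.05). Trp53 itself rose by 0.18 ± 0.06 (adjusted p = 0.0423). Foxo4 (-0.01 ± 0.04, adjusted p = 0.848) and Srf (-0.03 ± 0.04, adjusted p = 0.606) were not called. Among 20 other p53 targets 16 rose and none fell (1 was lower at an unadjusted p under 0.05), with a median of 0.70. Of the 4 with the smallest p, Pmaip1 and Cdkn1a rose by 4.70 ± 0.05 and 3.33 ± 0.05. Ccng1 read 1.01 to 1.05 with the hairpin and -2.11 to -2.06 with the vector, and Phlda3 rose by 2.15 ± 0.04, while Ddb2 (0.04 ± 0.04, adjusted p = 0.496) and Polk (0.14 ± 0.05, adjusted p = 0.0537; -0.04 by another probe) did not pass, although Polk passed in 6 of 21 alternatives (lowest adjusted p 0.0184), the replicate block among them. Of 20 other immediate early genes 18 rose and 1, Myc, fell (median 0.73). The lists of regulators, p53 targets and immediate early genes share some genes. Those of smallest p among the immediate early genes were Dusp2 (3.49 ± 0.08), Egr2 (2.95 ± 0.07), Egr1 and Klf4 (1.20 ± 0.04). Egr3, above background on only 4 of the 6 arrays, stood at -0.08 ± 0.07 (adjusted p = 0.417).

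**Figure D4:**
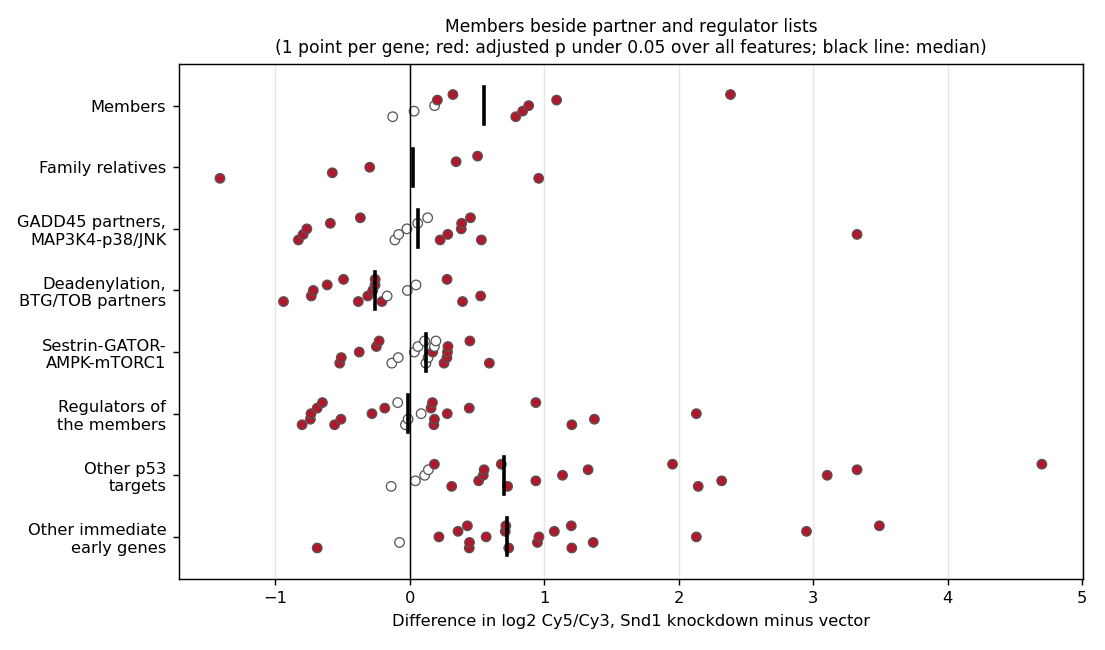
Knockdown minus vector difference in log2 ratio for the 10 members and for 7 lists of relatives, partners, regulators, p53 targets and immediate early genes, 1 point per gene, red where the adjusted p was under 0.05, with the list median as a black line. Medians are 0.55 for the members, 0.70 for other p53 targets and 0.73 for other immediate early genes, and lie between -0.26 and 0.12 for the remaining lists.

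Nearness of pattern over the 8 arrays was measured by the root mean square difference after centring each gene on its mean. Only features with a gene symbol were compared. Nearest to Btg2 were Slc7a8 (0.0817 log2 units), Atp1b1 (0.0881) and Peg12 (0.115). Slc7a8 encodes an amino acid transporter and Atp1b1 a subunit of the sodium pump, while Peg12 is an imprinted gene. Their knockdown minus vector differences were 2.35, 2.30 and 2.28. Nearest to Tob1 were Klhl42 (0.0594), Qpctl (0.0707) and Ccdc71l (0.0719), with differences from 1.03 to 1.17, and other probes of Klhl42 gave 0.30 and 0.40. These genes were picked for likeness, so their values are a description over 8 arrays that share a reference RNA.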

How the data were processed

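Per the file headers, the deposited intensities give for every spot the median of its pixels and of the surrounding background in each dye, and Agilent Feature Extraction 11.0.1.1 made them, whereas the submitters' processing notes name 9.5.3.1. The deposited log10 ratios compare Cy5 with Cy3 once the software had normalized the dyes, per the file headers, and the series' table holds log2 ratios that the authors made from them, not centred (column medians 0.026 to 0.146, r of at least 0.988 with each array's own ratios).

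Intensities were background-corrected (normexp, offset 50) and loess-normalized within arrays with limma 3.58.1 in R 4.3.3. Control spots and outlier flags were left out, and no spot was saturated. Summed marker signals and the Cy5 channel alone used background-corrected Cy5 values brought to a common distribution between arrays (quantile normalization). The design did not name mean or median signals, and the files hold median signals. Unversioned accessions were matched to RefSeq symbols (assembly GRCm38.p6, used for names and promoter sequences, while the headers name mm9), which named 27668 of 41174 probes. The files hold no gene names. The probe of highest mean brightness stood for a gene, and a feature entered the test if 3 or more of the 6 arrays had it well above background in Cy5. Knockdown and vector were compared with lmFit and eBayes on the log2 scale, adjusted over all features. Rescue differences have no replicates. Alternatives changed the background correction, the normalization, the source of the ratios, the filter, the handling of probes, the blocks, the threshold and the arrays left out.

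Knockdown and vector arrays of the same number deviated together from their groups (r 0.597, 0.326 and 0.338 over features), but unlike numbers of the second slide did so too (0.39 and 0.247), whereas arrays of different slides gave -0.378 to -0.499. Deviations cancel out within each group, so the negative values across slides follow from the positive ones and carry no separate information. Within the second slide, like and unlike numbers gave similar r. Alternatives fit the number and the slide as a block.

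Members and lists were chosen with earlier results of these data known. Named were all members, Snd1 and Mtdh. From each list the called genes were named (for lists above 8 genes, the 4 of smallest p) with up to 2 uncalled genes of smallest SE, and for members past 2-fold the 3 nearest patterns. Other genes named (Myc, Tek, Btg4, Nfkb1, Cnot8, Trp53, Trp63, Atr, Chek2, Seh1l, Wdr24, Wdr59 and single fibroblast markers) were chosen after their values were seen. Protein sequences were not used here.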

Additional observations from a re-analysis of the deposited data

How the results depend on the processing

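Over 21 alternatives to the knockdown comparison, 5 to 8 members were called higher. Gadd45g, Btg1, Btg2 and Tob1 kept their direction and their call in each of them, Btg2 between 2.37 and 2.77 and Tob1 between 0.63 and 1.32 on the log2 scale. With median centring and with scaling between arrays 1 member, Plk2, was called lower. Scaling between arrays, which multiplies each array's log ratios, turned Gadd45b to -0.14 (adjusted p = 0.512) and even the hairpin's target Snd1 to 0.018 (adjusted p = 0.977). The mean of all probes turned Mios to -0.13. With the replicate block, 12905 features and 8 members were called, against 11497 and 7, and Btg3 was the member gained. With the slide as a block the counts were 13343 and 8. The replicate block changed no other member's call. Among the lists, median centring and the Cy5 channel alone reduced the regulators that rose from 10 to 5 and the sestrin-mTORC1 genes that rose from 7 to 2 and 3. The Cy5 channel alone reduced the sestrin-mTORC1 genes that fell from 5 to 3, and scaling between arrays reduced the regulators that fell from 9 to 5, the deadenylation genes that fell from 11 to 2 and the GADD45 partners that rose from 7 to 4. Leaving out 1 replicate at a time gave 9960 to 11350 features and 6 to 8 members.

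For the rescue arrays the number of features past 1.5-fold depended on the source of the values. It was 45, against 1124 with the Feature Extraction log ratios, 1129 with the series' value table, 1064 from the Cy5 channel alone and 96 with median centring, and 1 feature passed 2-fold. No member passed in any of them, and the farthest member value was 0.33 (Plk3, Cy5 channel alone). The cause of these shifts was not tested. With 3 arrays a group, small differences such as those of Gadd45b and Btg3 depend on single arrays. With 1 array each, on different slides, the rescue differences cannot be separated from array-to-array or slide-to-slide spread.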
